A study of Mus musculus with 20 samples.

Results

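*Bex1*, *Bex4*, *Bex3* (also written *Ngfrap1*) and *Bex2* were examined in mouse livers that carry an *IMP2-2* transgene (tg) and in livers of wildtype (wt) mice. Every probe set annotated to these 4 genes was taken, which gave 4 probe sets, 1 per gene, of 45101 on the array and 18194 genes with a probe set of their own. The family was chosen because the tg over wt difference of *Bex1* was already known to be very large. All tg over wt values of the 4 genes are therefore given as a description, with a standard error or interval and without a p-value.

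The series measured liver RNA on 20 oligonucleotide arrays, each titled as a separate animal. It compared mice that carry IMP2-2, also called p62 and a splice variant of the mRNA binding protein IGF2BP2, with mice that do not. The 10 tg livers came from liver-specific p62 transgenic animals and the 10 wt livers from wild-type animals. Both groups were 5 weeks old, had the background strain C57Bl6J/DBA2 and were untreated. The promoter that drives the transgene and the number of founder lines are not given in the sources used here. The sample titles carry 6 numbers that both genotypes share, followed by an animal number, and the meaning of the shared numbers is not stated. Values are log2 units of the RMA summary, so a difference of 1 unit is a doubling. They rank samples for 1 probe set and do not compare levels between genes.

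Bex is short for brain expressed, X-linked. The genes encode small, largely unstructured proteins of placental mammals, and they lie on the X chromosome among the related *Tceal* genes. Their RNA is abundant in brain and endocrine tissue. Bex3, known in humans and rodents as NADE, binds the death domain of the p75 neurotrophin receptor. Rat Bex1 binds the same receptor, and human BEX2 and BEX4 have been tied to cell cycle control. The study counts *Bex1* among the markers of liver progenitor cells (LPC).

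The promoters are shown because they split the 4 genes into 2 pairs, a grouping that the choice of genes did not use. Each window holds 250 bases before and 50 bases after the transcription start, from RefSeq on GRCm38.p6, and all 4 genes had 1 window. Capitals mark each GC box, GGGCGG on either strand, and each E-box, CACGTG. The windows are chrX:136215464-136215763, minus strand, for *Bex1*, chrX:136138746-136139045, plus strand, for *Bex4*, chrX:136068187-136068486, minus strand, for *Bex2* and chrX:136270003-136270302, plus strand, for *Bex3*.
Bex1: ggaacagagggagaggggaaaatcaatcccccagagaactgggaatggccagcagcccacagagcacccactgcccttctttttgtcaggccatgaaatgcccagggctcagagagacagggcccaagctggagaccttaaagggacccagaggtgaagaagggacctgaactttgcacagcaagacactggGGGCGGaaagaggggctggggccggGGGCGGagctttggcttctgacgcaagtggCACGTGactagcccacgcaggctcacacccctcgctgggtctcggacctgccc
Bex4: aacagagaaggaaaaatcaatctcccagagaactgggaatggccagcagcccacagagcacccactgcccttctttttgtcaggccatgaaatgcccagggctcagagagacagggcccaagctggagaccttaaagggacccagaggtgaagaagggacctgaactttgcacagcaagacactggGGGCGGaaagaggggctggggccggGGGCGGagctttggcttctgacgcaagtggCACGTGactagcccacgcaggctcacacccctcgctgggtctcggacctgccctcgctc
Bex2: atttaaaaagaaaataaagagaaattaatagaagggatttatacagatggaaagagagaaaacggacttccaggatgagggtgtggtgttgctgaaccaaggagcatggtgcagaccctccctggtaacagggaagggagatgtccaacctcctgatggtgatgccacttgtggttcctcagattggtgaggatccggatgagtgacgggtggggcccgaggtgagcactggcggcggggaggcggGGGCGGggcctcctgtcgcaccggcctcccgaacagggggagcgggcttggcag
Bex3: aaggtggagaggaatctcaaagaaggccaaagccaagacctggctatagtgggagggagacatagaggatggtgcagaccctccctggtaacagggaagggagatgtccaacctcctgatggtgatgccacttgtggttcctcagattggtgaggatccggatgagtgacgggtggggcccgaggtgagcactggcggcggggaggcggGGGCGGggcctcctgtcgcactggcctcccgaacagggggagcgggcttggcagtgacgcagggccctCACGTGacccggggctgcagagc

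Laid against each other without gaps, the *Bex1* and *Bex4* windows had 288 of 294 bases in common (98.0%). They shared 1 unbroken run of 271 bases, from position -221 to position 49 of the *Bex1* window, where 0 is the first transcribed base. The *Bex2* and *Bex3* windows had 223 of 263 bases in common (84.8%), with a longest run of 162. Between the pairs, identity was 33.6% to 34.9%. Among the promoter windows of 27025 genes, the 1 gene that shared a stretch of 30 bases with *Bex1* was *Bex4*, and the 1 gene that did so with *Bex2* was *Bex3*.

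Motifs were searched on both strands. The GC box GGGCGG occurred at -58 and -33 in *Bex1*, at -64 and -39 in *Bex4*, at -4 in *Bex2* and at -41 in *Bex3*, and 35.7% of 32851 windows of the same length held it. An E-box CACGTG began at -3 in *Bex1*, at -9 in *Bex4* and at 27 in *Bex3*, and 7.15% of windows held one. The letters CCAAT were found once in *Bex2* and once in *Bex3* (37.4% of windows), TATAAA once in *Bex2* (13.6%) and TGACGTCA in none of the 4 (1.79%). None of these searched motifs overlapped another in the 4 windows. The windows held 8, 9, 12 and 13 CpG sites in *Bex1*, *Bex4*, *Bex2* and *Bex3*, beside a median of 7 over all windows. The identical run extends past both annotated starts, which lie 6 bases apart within it. Whether the probes of 1 gene also bind RNA of another was not tested, since the probe letters were not used here.

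Several arrays stood apart before any gene was considered. Array medians were 4.46 to 4.55. The SD over probe sets of the difference between 2 arrays was 0.224 to 0.510 in most pairs, and it was 0.168 for wt_1407_2 and wt_1420_6, 0.172 for wt_1407_5 and wt_1420_7, and 0.155 for tg_1386_9 and wt_1386_4. Each close wt pair was counted as 1 in means and SDs, which leaves 8 wt profiles, while the limma fit kept all 20 arrays. Whether the 2 arrays of a close wt pair come from the same mouse was not tested. The array wt_1386_4 goes against its label for *Bex1*, so the main values that rest on it are given with and without it. On the main axis of variation, which held 32.7% of the variance, tg_1420_4, tg_1423_2-8_1 and tg_1423_2-8_4 lay at 53.0 to 70.4, the other 7 tg arrays at -20.2 to 8.30, and the wt arrays at -26.8 to 7.65. These 3 tg arrays are called the 3 outlying tg arrays below, and they were picked by this axis over all probe sets. All 20 arrays had the same pattern, that of males, with low *Xist* (3.51 to 4.74) and high Y-linked *Eif2s3y* (8.92 to 9.57). No probe set had *Igf2bp2* as its single gene, so the genotype labels were not checked against the transgene.

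*Bex1* showed the largest difference of the family. In tg livers its lowest, median and highest values were 5.68, 8.14 and 10.19, and in wt livers they were 2.59, 2.91 and 6.80. Only wt_1386_4 was high among the wt arrays, and it lay above the tg arrays tg_14231_6 (5.68) and tg_1371_2 (6.22), so the groups overlapped. Without it the highest wt array was 3.18 and all 10 tg arrays lay above all wt arrays. With the same array left out, 0.14% of all probe sets showed such a lack of overlap. The array was set aside for its *Bex1* value, so this is a description and not a test. The other probe sets left out the same array, whichever of their wt arrays was highest. Means were 8.11 ± 1.61 in tg livers (SD, n = 10) and 3.39 ± 1.38 in wt livers (SD, n = 8), or 2.91 ± 0.17 in wt livers without wt_1386_4 (n = 7). The limma difference of tg over wt was 4.83 (SE 0.590, 95% interval 3.61 to 6.06), a 28.5-fold change and the 2nd largest rise in the table. It was 5.22 without wt_1386_4 and 4.11 without the 3 outlying tg arrays.

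The wt level of *Bex1* was dim. All 10 tg arrays and 1 wt array, wt_1386_4, reached 4.53, the median level of all probe sets. The fold of a probe set with so dim a wt level is not an exact ratio of RNA amounts. In bulk liver, fewer cells of a type and less RNA per cell cannot be told apart, here and for every gene below.

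*Bex4* had the next largest difference. Its lowest, median and highest values were 4.96, 6.05 and 9.59 in tg livers, and 4.14, 5.08 and 6.31 in wt livers. The groups overlapped, and 4 of 10 tg arrays lay above all wt arrays, although 9 of 10 were above the wt median. Those 4 were tg_1423_2-8_1 (9.59), tg_1423_2-8_4 (9.46), tg_1420_4 (8.53) and tg_1407_3 (7.30). Among wt livers, wt_1423_2-8_9 was the highest at 6.31. Means were 6.91 ± 1.70 in tg livers (SD, n = 10) and 5.14 ± 0.55 in wt livers (SD, n = 8). The limma difference was 1.81 (SE 0.518, 95% interval 0.74 to 2.89), 3.51-fold. It was 0.84 (SE 0.276) without the 3 outlying tg arrays, under the 1.81 of all arrays by more than 1.5 times.

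*Bex3*, the p75 receptor partner, was well detected in both genotypes, with all 20 arrays above 4.53. It had 6.35, 6.95 and 8.17 as lowest, median and highest values in tg livers, and 6.14, 6.39 and 6.65 in wt livers. Of the tg arrays, 7 of 10 lay above all wt arrays, and the other 3 fell within the wt range. Means were 7.07 ± 0.62 in tg livers (SD, n = 10) and 6.35 ± 0.14 in wt livers (SD, n = 8). The limma difference was 0.70 (SE 0.186, 95% interval 0.31 to 1.09), 1.62-fold, and 0.38 (SE 0.107) without the 3 outlying tg arrays.

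*Bex2* stayed dim in nearly every liver. Its lowest, median and highest values were 3.15, 3.60 and 4.72 in tg livers, and 3.23, 3.41 and 3.65 in wt livers. Only tg_1423_2-8_1, at 4.72, reached the median level of all probe sets. The lowest tg array, tg_14231_6, was below every wt array. Of the tg arrays 5 of 10 were above all wt arrays, or 7 of 10 without wt_1386_4, the highest wt array for *Bex2*, where the next was at 3.51. Means were 3.70 ± 0.44 in tg livers (SD, n = 10) and 3.43 ± 0.13 in wt livers (SD, n = 8). The limma difference was 0.27 (SE 0.135, 95% interval -0.01 to 0.55), 1.21-fold, and 0.07 (SE 0.0802) without the 3 outlying tg arrays. Without wt_1386_4 the differences were 1.85 for *Bex4*, 0.70 for *Bex3* and 0.30 for *Bex2*.

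**Figure D1:**
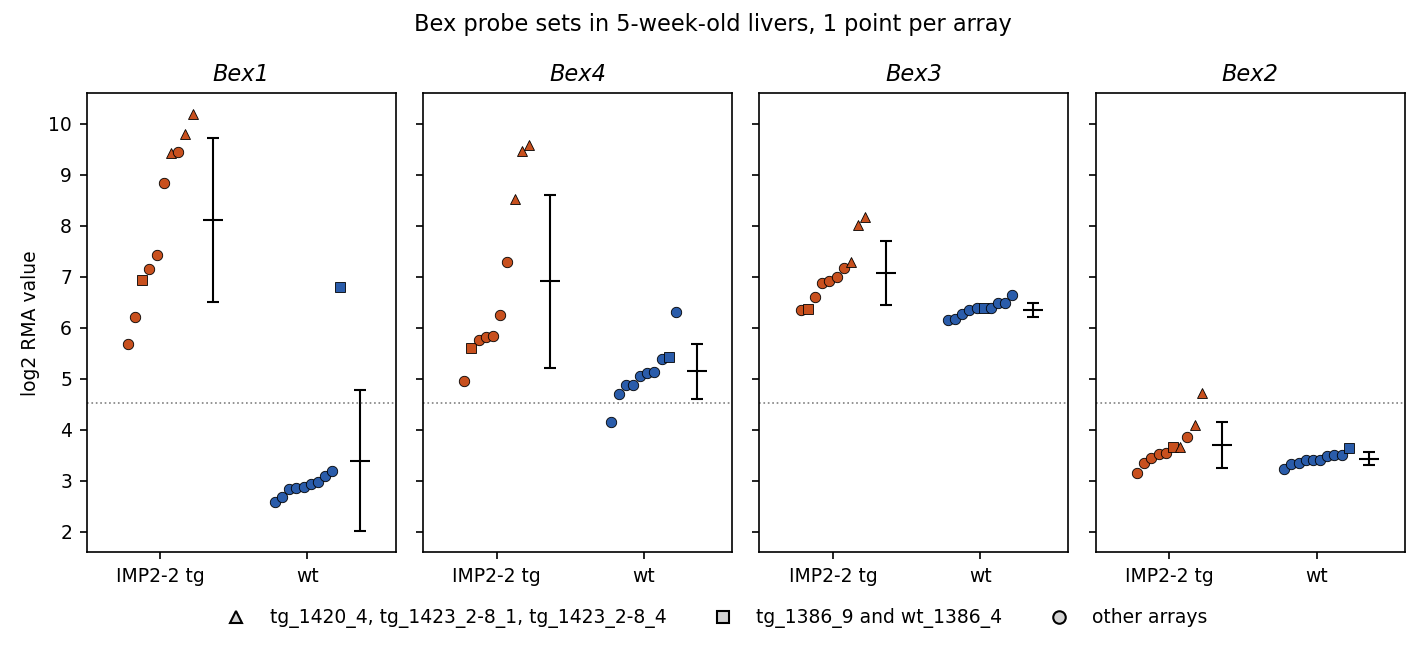
Log2 RMA values of the 4 Bex probe sets (y axis) in 10 IMP2-2 tg arrays (orange, left in each panel) and 10 wt arrays (blue, right), 1 point per array, with mean ± SD (n = 10 tg, n = 8 wt profiles). The dotted line is the median level of all probe sets, 4.53; wt_1386_4 is the single high wt square for Bex1, and the 3 triangles are the highest tg arrays for Bex4.

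The order of the differences was thus *Bex1*, *Bex4*, *Bex3*, *Bex2*, at ranks 2, 30, 372 and 2695 among 45101 probe sets. The 95% intervals of *Bex1* and *Bex4* did not overlap, while those of *Bex4*, *Bex3* and *Bex2* overlapped with their neighbour in the order. The family was chosen for the large difference of *Bex1*, and all intervals come from the same livers. The comparison of intervals is therefore a description and not a test. At an adjusted p under 0.05, 2 of the 4 probe sets were called higher, *Bex1* and *Bex3*, and 1.88% of all probe sets were. *Bex1* was called in all 20 fits that left out 1 array, which is a description, since its large difference chose the family. *Bex3* was called in 3 of those 20, the fits without tg_1386_9, tg_1420_12 or tg_14231_6, and *Bex4* in 2, those without tg_1386_9 or tg_14231_6. With each close wt pair averaged, *Bex1* alone was called. With the shared title number as a block, *Bex4* was called too, and the differences stayed the same, with SEs of 0.543 for *Bex1*, 0.426 for *Bex4*, 0.178 for *Bex3* and 0.111 for *Bex2*.

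Within the title numbers, the size of the difference varied widely. *Bex1* was higher in tg livers in 6 of 6 numbers, with differences of 6.73 between the tg_1423_2-8 and wt_1423_2-8 arrays, 6.31 between tg_1407 and wt_1407, 5.31 between tg_1420 and wt_1420, 3.37 between tg_1371 and wt_1371, 2.80 between tg_14231 and wt_14231, and 0.14 between tg_1386 and wt_1386. *Bex4* was higher in 5 of 6, with 3.93 for the tg_1423_2-8 arrays at the top and -0.16 for tg_14231_6 at the bottom. The liver tg_14231_6 thus had a *Bex1* difference of 2.80 without a higher *Bex4*. *Bex3* (-0.02 to 1.47) and *Bex2* (-0.08 to 0.95) were each higher in 5 of 6 and had their largest difference in the tg_1423_2-8 arrays as well. These 6 comparisons are not independent, because the close pairs of wt arrays join wt_1407 with wt_1420 arrays. The pair tg_1386_9 and wt_1386_4 was nearly alike for all 4 genes, with 6.94 and 6.80 for *Bex1*, 5.61 and 5.42 for *Bex4*, 6.37 and 6.39 for *Bex3*, and 3.65 and 3.65 for *Bex2*.

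**Figure D2:**
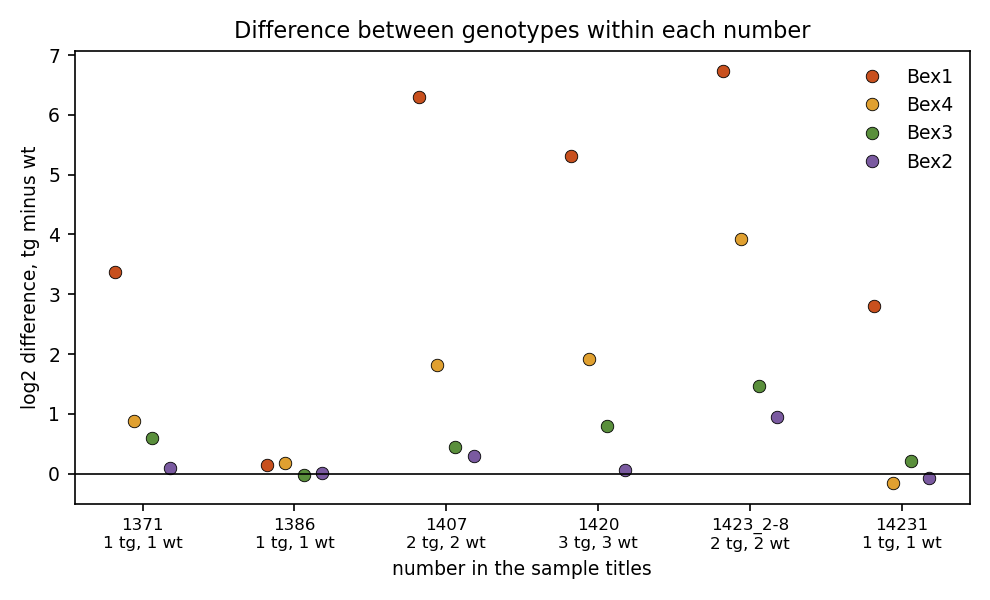
Log2 difference of tg minus wt (y axis) for the 4 Bex genes within each of the 6 numbers in the sample titles (x axis, with the number of arrays of each genotype); means are taken where a number holds several arrays. Bex1 is at 0.14 for tg_1386_9 and between 2.80 and 6.73 elsewhere, and Bex4 is at -0.16 for tg_14231_6 and 3.93 for the tg_1423_2-8 arrays.

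For all 4 genes the SD over tg livers was larger than that over wt livers. The SD over tg arrays exceeded that of 99.9% of all probe sets for *Bex1* and for *Bex4*, 97.8% for *Bex3* and 94.6% for *Bex2*. In wt livers the SD exceeded that of 99.8% of probe sets for *Bex1*, with wt_1386_4 included, 98.2% for *Bex4*, 49.9% for *Bex3* and 42.7% for *Bex2*. *Bex4* was thus among the most variable probe sets in both genotypes. *Bex1* was so in tg livers, while its place in wt livers rested on wt_1386_4. The ratio of the tg SD to the wt SD was 4.58 for *Bex3*, 3.54 for *Bex2*, 3.12 for *Bex4* and 1.17 for *Bex1*, whose wt SD was 1.38 with wt_1386_4 and 0.17 without it. The variation between livers of 1 genotype was not what chose the family, so correlations with *Bex1* were tested within each genotype. The partners were the other 3 Bex genes and the LPC genes *Afp*, *Prom1*, *Cdh1*, *Epcam* and *Sox9*, which made 16 pairs with Benjamini-Hochberg adjustment over them. The study also counts *Spp1* as an LPC marker, and it was neither a partner nor in the gene lists below. The study had examined these LPC genes in the same livers, so they are not independent evidence. No title number held more than 3 tg arrays. For tg livers r was therefore also pooled within numbers, over deviations from the mean of each number, which left 7 arrays in 3 numbers and 4 residual degrees of freedom. With 24 permutations within numbers the smallest possible p was 0.0417, and the p-values over all 10 tg arrays do not take the shared numbers into account.

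*Bex4* followed *Bex1* across the tg livers. Pearson's r was 0.863 (n = 10, permutation p = 0.00131, adjusted p = 0.00699) and Spearman's rho 0.939 (permutation p = 2.7e-04, adjusted p = 0.00216), both two-sided. Without tg_14231_6 and tg_1423_2-8_1, the arrays farthest from the *Bex1* median, r was 0.786 (n = 8, exact permutation p = 0.0184, adjusted p = 0.0590). Without the 3 outlying tg arrays it was 0.817 (n = 7, exact permutation, adjusted p = 0.0825), so neither smaller set passed the threshold after adjustment. Pooled within title numbers r was 0.943 (7 arrays, exact permutation p = 0.0417, adjusted p = 0.111), and the widest spread within a number was that of the tg_1420 arrays, with *Bex1* at 9.81, 7.43 and 7.16. The array tg_1407_9 departed from the relation, with a high *Bex1* of 8.84 and a *Bex4* of 5.84, inside the wt range. In wt livers r was 0.304 (n = 8, exact permutation p = 0.342, adjusted p = 0.547) and rho 0.952 (exact permutation p = 0.00114, adjusted p = 0.00456). That r depended on wt_1386_4, and without it r was 0.866 (n = 7, exact permutation, adjusted p = 0.0217). The wt values of *Bex1* behind the 0.866 spanned 2.63 to 3.18, all below the median level of probe sets.

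**Figure D3:**
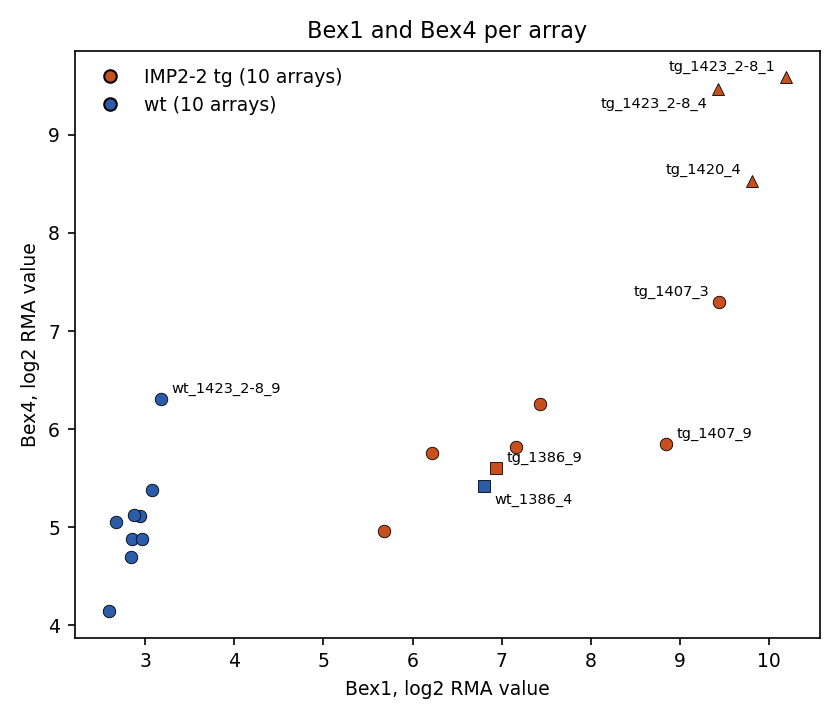
Bex4 against Bex1, both as log2 RMA values, 1 point per array (orange, 10 IMP2-2 tg; blue, 10 wt; triangles, the 3 outlying tg arrays; squares, tg_1386_9 and wt_1386_4). The tg arrays run along a rising line with r = 0.863, tg_1407_9 lies below it, and wt_1386_4 (6.80, 5.42) sits among the tg points.

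*Bex2* and *Bex3* had lower r with *Bex1* than *Bex4* had. In tg livers r was 0.745 for *Bex2* (n = 10, permutation p = 0.00587, adjusted p = 0.0188) and rho was 0.782 (permutation p = 0.0107, adjusted p = 0.0284). For *Bex3* r was 0.731 (permutation p = 0.0154, adjusted p = 0.0410) and rho 0.709 (permutation p = 0.0275, adjusted p = 0.0628). Without the 2 farthest arrays r was 0.594 for *Bex2* (exact permutation p = 0.121, adjusted p = 0.215) and 0.709 for *Bex3* (exact permutation p = 0.0511, adjusted p = 0.117), so neither passed with 8 arrays, and r moved more for *Bex2* than for *Bex3*. Pooled within title numbers r was 0.468 for *Bex2* (exact permutation p = 0.25, adjusted p = 0.4) and 0.639 for *Bex3* (exact permutation p = 0.417, adjusted p = 0.476). In wt livers neither passed (r = 0.701, exact permutation, adjusted p = 0.118 for *Bex2*, and r = 0.127, exact permutation, adjusted p = 0.75 for *Bex3*). The wt values depended on wt_1386_4, and without it r was 0.131 for *Bex2* and 0.0155 for *Bex3* (n = 7, exact permutation, adjusted p = 0.976 for both). Whether the correlations differ between partners, or go with the promoter pairs, was not tested.

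Among the LPC genes, *Afp*, the fetal counterpart of albumin, and *Cdh1*, which encodes E-cadherin, had the highest r with *Bex1* in tg livers. For *Afp* r was 0.930 (n = 10, permutation p = 6e-05, adjusted p = 9.6e-04) and rho 0.939 (permutation p = 1.7e-04, adjusted p = 0.00216), and r was 0.891 without the 2 farthest arrays (n = 8, exact permutation p = 0.00171, adjusted p = 0.0274). For *Cdh1* r was 0.944 (n = 10, permutation p = 1.7e-04, adjusted p = 0.00136) and rho 0.927 (permutation p = 4.3e-04, adjusted p = 0.00229), and r was 0.900 without those arrays (n = 8, exact permutation p = 0.00667, adjusted p = 0.0534). *Prom1*, a surface protein of progenitor cells, had an r of 0.816 (permutation p = 0.00519, adjusted p = 0.0188) and rho of 0.806 (permutation p = 0.00709, adjusted p = 0.0227), with 0.684 after leaving out the 2 arrays (exact permutation p = 0.0663, adjusted p = 0.133). Without the 3 outlying tg arrays r was 0.919 for *Afp* (n = 7, exact permutation, adjusted p = 0.0381), 0.894 for *Cdh1* (exact permutation, adjusted p = 0.0810) and 0.565 for *Prom1* (exact permutation, adjusted p = 0.297), so *Afp* alone of these still passed. Pooled within title numbers r was 0.963 for *Afp*, 0.961 for *Cdh1* and 0.947 for *Prom1* (7 arrays, exact permutation, adjusted p = 0.111, 0.25 and 0.111). *Epcam* (r = 0.154, permutation, adjusted p = 0.75) and *Sox9* (r = -0.194, permutation, adjusted p = 0.75) did not pass. The mean level of *Epcam* was below the median level of probe sets in both genotypes. The study reported *Epcam* as higher in tg livers on these arrays. The probe set used here had a difference of 0.07 (SE 0.0793, limma adjusted p = 0.667), and the reason for this disagreement was not tested. In wt livers none of the 5 LPC genes passed (r from -0.241 to 0.808, exact permutation). Without wt_1386_4, *Cdh1* had an r of -0.904 and *Sox9* of -0.874 in wt livers (n = 7, exact permutation, adjusted p = 0.0216 for both), while both had been positive with it. The *Bex1* values behind these 2 r spanned only 2.63 to 3.18, all below the median level of probe sets. The r of 0.808 was that of *Afp*, and without wt_1386_4 it was 0.0341 (n = 7, exact permutation, adjusted p = 0.976). *Prom1* moved less, with 0.492 over all 8 profiles and 0.670 without that array, and *Epcam* had -0.241 and -0.0613.

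**Figure D4:**
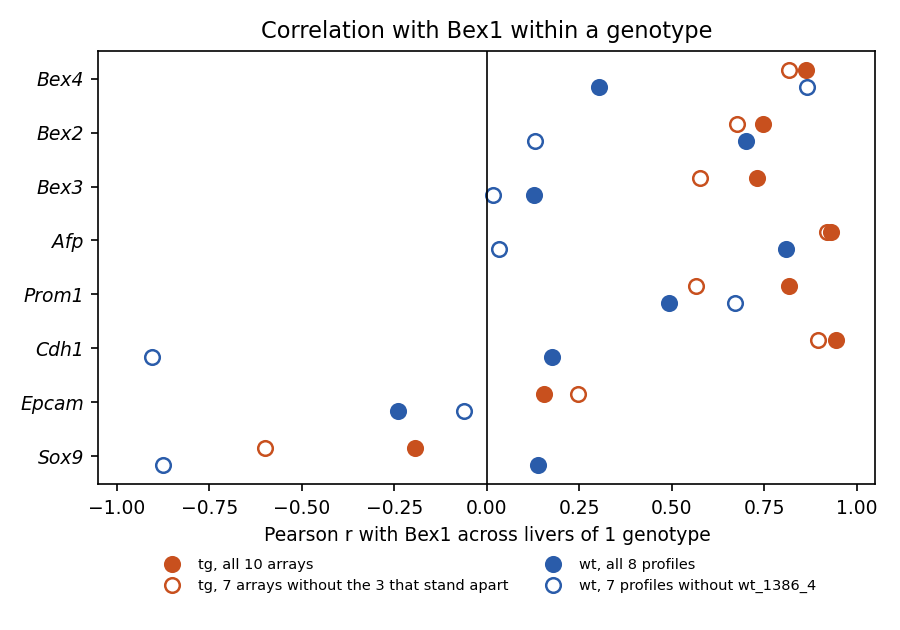
Pearson r with Bex1 (x axis) for 8 partner genes (y axis), across tg livers (orange) and wt livers (blue); filled points use all 10 tg arrays or 8 wt profiles, open points leave out the 3 outlying tg arrays or wt_1386_4. Bex4 is at 0.863 and 0.817 in tg livers, and its wt value is 0.304 with wt_1386_4 and 0.866 without it.

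The pattern of *Bex1* across tg livers was shared by many genes. Of 11728 genes at or above the median level, 727 had an r of 0.8 or more with *Bex1* over the 10 tg arrays, and the median r was -0.015. The 10 most alike were *Asb13* (r = 0.976), *Fundc1* (0.964), *Wfs1* (0.956), *Parp3* (0.954), *Tsc1* (0.952), *Impact* (0.952), *Bmpr1a* (0.949), *Pfn2* (0.949), *Phf20* (0.947) and *Prkca* (0.947). None of these belongs to the family. *Fundc1* encodes a mitophagy receptor, *Tsc1* an inhibitor of mTOR complex signalling, and *Bmpr1a* a receptor of bone morphogenetic proteins. The 5 most opposed were *Txnrd2* (r = -0.969), *Fbxw8* (-0.947), *Hemk1* (-0.943), *Srf* (-0.942) and *Ift172* (-0.939). *Bex4* ranked 289 and *Bex3* 1296 by this measure, and *Bex2* was too dim to be ranked. These are descriptions over 10 livers that share the main axis of variation, and in wt livers the same 10 genes had r between -0.563 and 0.580.

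The gene lists below were tested in the same limma fit over all probe sets, with 1 probe set per gene. Among relatives outside the 4 genes, 5 of 8 listed genes of the BEX/TCEAL family were measured, and 1 was higher and 0 lower in tg livers, beside 2.98% of all genes higher and 0.967% lower. The list's median difference was 0.33, and that of all genes -0.02. *Tceal9*, next to *Bex3* on the X chromosome, was the gene that passed, with 9.55 ± 0.34 in tg livers and 9.02 ± 0.11 in wt livers (log2 difference 0.52, SE 0.107, limma adjusted p = 0.0155). It did not pass without the 3 outlying tg arrays, where the list count was 0. *Tceal8*, between *Bex4* and *Bex1*, had a difference of 0.62 (SE 0.196, limma adjusted p = 0.0852), and *Tceal1* one of 0.33 (SE 0.135, limma adjusted p = 0.176). *Tceal7*, the measured gene next to *Bex1* on its other side, stood at 2.75 in tg livers and 2.83 in wt livers (log2 difference -0.08, SE 0.0544, limma adjusted p = 0.433). *Bex6*, a family member that lies on an autosome, stood at 2.30 ± 0.11 in tg livers and 2.40 ± 0.06 in wt livers (-0.08, SE 0.0454, limma adjusted p = 0.299). Both *Tceal7* and *Bex6* were below the median level in both genotypes.

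The Bex genes do not lie side by side. Of 34 measured genes in order along the X chromosome, *Bex2* was 13th, *Bex4* 16th, *Bex1* 18th and *Bex3* 21st. Of the 30 that are not Bex genes, 15 on each side of *Bex1*, 2 were higher and 0 lower, *Tceal9* and *Morf4l2*, and the median difference was -0.03. Over all genes 2.98% were higher and 0.967% lower, and *Tceal9* is counted in the BEX/TCEAL list as well. *Morf4l2*, which encodes a chromatin-associated MRG protein, had 11.22 in tg livers and 10.87 in wt livers (0.36, SE 0.0966, limma adjusted p = 0.0478). Without the 3 outlying tg arrays 0 of the 30 passed. In both genotypes 18 of the 30 neighbours were below the median level. *Bhlhb9*, the measured gene next to *Bex2*, had the largest difference of the 30 and did not pass (0.82, SE 0.310, limma adjusted p = 0.138). *Nxf3*, which lies between *Bex2* and *Bex4*, had a difference of -0.04 (SE 0.0532, limma adjusted p = 0.723).

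**Figure D5:**
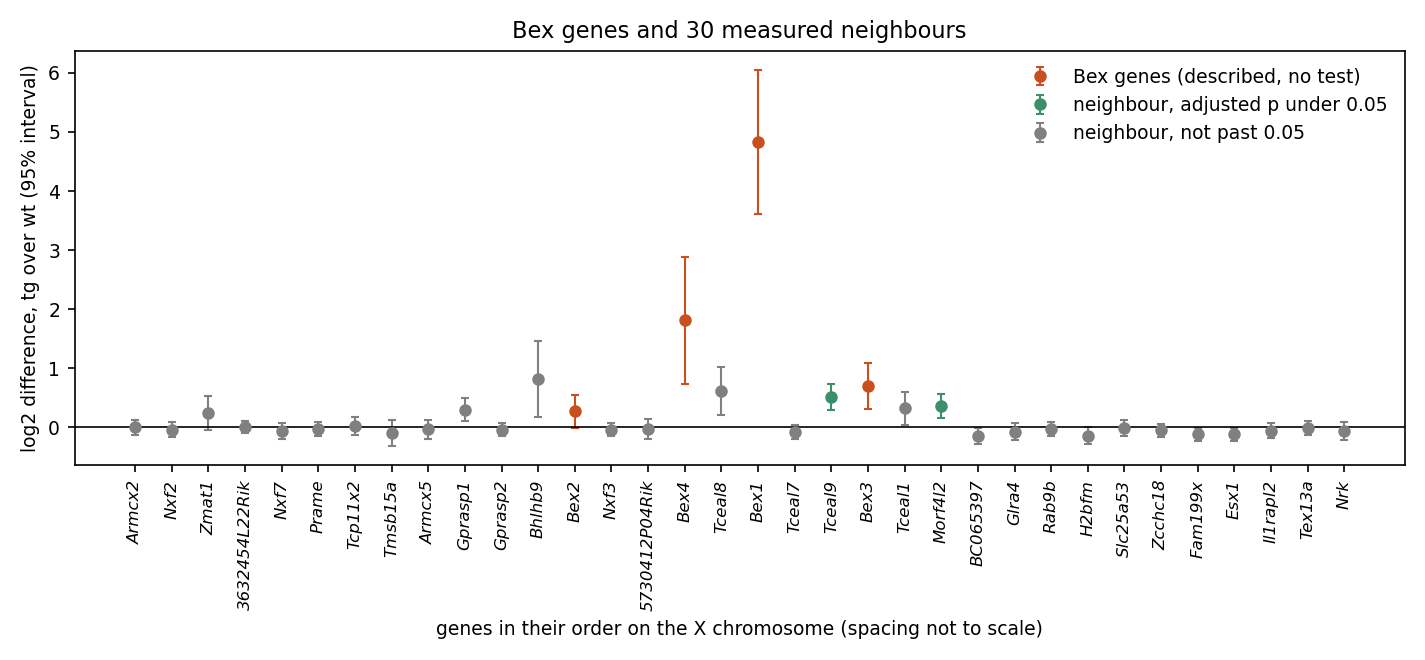
Log2 difference of tg over wt with its 95% interval (y axis) for the 4 Bex genes (orange) and 30 measured neighbours (green, adjusted p under 0.05; grey, not past it), in their order on the X chromosome with spacing not to scale (x axis). Bex1 (4.83) and Bex4 (1.81) have the largest differences shown, above Bhlhb9 (0.82), Tceal8 (0.62) and Tceal7 (-0.08). The interval of Bex4 (0.74 to 2.89) overlaps those of Bhlhb9 (0.18 to 1.47) and Tceal8 (0.21 to 1.03).

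The p75 neurotrophin receptor and its partners were examined because Bex3 and rat Bex1 bind that receptor. Of 23 listed genes 17 were measured, and 1 was higher and 0 lower, with a median of 0.07, beside 2.98% of all genes higher and 0.967% lower. *Adam17*, the protease that sheds the receptor's outer part, had 7.45 in tg livers and 7.10 in wt livers (0.32, SE 0.0797, limma adjusted p = 0.0372). With the title number as a block 2 passed, and without wt_1386_4, without the 3 outlying tg arrays or with the close wt pairs averaged 0 passed. The receptor itself, *Ngfr*, had a difference of 0.10 (SE 0.0978, limma adjusted p = 0.607). *Maged1*, another partner of the receptor, had a difference of 0.10 (SE 0.118, limma adjusted p = 0.683).

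Markers of cell types that carry Bex RNA elsewhere were given as lists beside the Bex values. Of 13 measured neural markers 0 were higher and 0 lower by limma (median -0.08), or 0 and 1 at an unadjusted p under 0.05. Their mean level was 3.72 to 3.95 in tg livers and 3.79 to 3.94 in wt livers. The neural markers *Snap25*, at 2.54 in both genotypes, and *Tubb3*, at 2.98 in tg livers and 3.02 in wt livers, were among the 8 of 13 below the median level in both. Of 14 measured neuroendocrine and pancreas markers 0 were higher and 0 lower by limma, or 1 and 5 unadjusted, with levels of 4.33 to 4.67 in tg livers and 4.48 to 4.72 in wt livers. Hepatocyte markers were at 13.2 to 13.4 in livers of both genotypes, and 0 of 9 passed in either direction by limma (2 higher and 1 lower unadjusted). The stellate cell list had 0 of 8 (3 higher unadjusted) and the lymphocyte list 0 of 7 (2 lower unadjusted).

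Members of 2 other lists were higher in tg livers, as *Bex1* was. Over all genes 2.98% were higher and 0.967% lower. Of 9 measured LPC and biliary markers 3 were higher and 0 lower in tg livers, *Afp* (4.14, SE 0.611, limma adjusted p = 0.00115), *Prom1* (2.66, SE 0.643, limma adjusted p = 0.0332) and *Cdh1* (0.82, SE 0.205, limma adjusted p = 0.0381). The *Afp* value, here and in the correlations above, is that of 1 probe set, the one with the highest mean. The study also gave other *Afp* probes from these arrays, all with smaller changes, the smallest of them not significant. The study chose part of this list on the same samples, so its direction is not independent evidence. The count was 1 to 3 over the alternatives tried. The list's mean level was 5.00 to 6.58 in tg livers and 4.55 to 5.19 in wt livers. The list's median difference was 0.15, and the genes of it that did not pass had differences of 0.01 to 0.15. In both genotypes 5 of the 9 were below the median level of all probe sets. Of 8 macrophage markers 5 were higher and 0 lower (median 0.50), at mean levels of 7.86 to 8.54 in tg livers and 7.53 to 8.08 in wt livers. The 3 of them with the largest difference were *Cd5l* (0.79, SE 0.152, limma adjusted p = 0.0106), *Cd68* (0.68, SE 0.139, limma adjusted p = 0.0144) and *Clec4f*, which marks Kupffer cells (0.60, SE 0.113, limma adjusted p = 0.00924). Without the 3 outlying tg arrays 0 of 8 macrophage markers passed, and with the close wt pairs averaged 3 did. The part of these cell types in the *Bex1* values was not tested.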

How the data were processed

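Livers of 10 *IMP2-2* tg and 10 wt mice were profiled on Affymetrix mouse genome arrays. The authors deposited log2 expression values per probe set after RMA (background correction, quantile normalization and summary of probes, per the labels). No raw intensities were used. Probe sets were named from the platform annotation, 34958 with 1 gene, 932 with several and 9211 with none.

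Differences were fitted with limma 3.58.1 in R 4.3.3 over all 45101 probe sets and 20 arrays, with genotype as the term and Benjamini-Hochberg adjustment (threshold 0.05). A gene was represented by its probe set with the highest mean. The script was tested on simulated data. Correlations used 100000 resamples for 10 arrays and exact permutation otherwise, with Python 3.11.15 and scipy 1.17.1. The number of arrays limits precision. The study's methods give 10 mice per genotype. P-values measure the spread between these arrays, 2 pairs of which were nearly identical within wt.

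Members, lists and tests were chosen with earlier results of these data known. The genes named are the 4 Bex genes, list genes past the threshold (or the 3 largest), defining markers, and the 10 most and 5 least like *Bex1*. Other list genes were named after their values were seen: *Tceal1*, *Tceal7*, *Tceal8*, *Bex6*, *Bhlhb9*, *Nxf3*, *Ngfr* and *Maged1*. Arrays with the same title number deviated together in all 6 numbers (r 0.184 to 0.404, own number highest in 5 of 6), so the number was also fitted as a block. Alternatives were 2 normalizations, a level filter, other variance settings, the block, *Xist* as a covariate, averaging of close arrays and leaving out arrays.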

Additional observations from a re-analysis of the deposited data

Results flagged for a closer look

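*Bex1* stood far from its group in 1 wt liver. The array wt_1386_4 had 6.80, while the other 7 wt profiles lay between 2.63 and 3.18, and the gap to the nearest of them was 0.868 of the whole wt range, above the critical value of 0.526 for 8 samples. Chance alone passes such a value in about 1 in 20 groups, and this was the 1 that passed among 4 genes in 2 genotypes. The same array was not set apart for the relatives, with 5.42 for *Bex4*, 6.39 for *Bex3* and 3.65 for *Bex2*. Its nearest array was tg_1386_9, with 6.94 for *Bex1*. Whether the label is wrong was not tested.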

How the results depend on the processing

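The 4 tg over wt differences kept their direction in every alternative run (*Bex1* 4.11 to 5.35, *Bex4* 0.84 to 2.03, *Bex3* 0.38 to 0.78, *Bex2* 0.07 to 0.33). The number of Bex probe sets called, 2, was 1 with repeated quantile normalization, trend and robust variance, array weights, *Xist* as a covariate, averaged close wt arrays, without wt_1386_4, without the 3 outlying tg arrays and without the 4 tg_1423_2-8 and wt_1423_2-8 arrays, and 1 to 3 when 1 array was left out. It was 3 with the title number as a fixed or random replicate block, with the level filter and without both tg_1386_9 and wt_1386_4. Over all probe sets, 850 were higher and 299 lower. With the title number as a replicate block these were 1634 and 607, with close wt arrays averaged 245 and 31, without the 3 outlying tg arrays 158 and 8, without those 4 arrays 69 and 5, and with 1 array left out 391 to 1684 and 72 to 776. Lower calls were 542 with a random replicate block, 476 with quantile normalization, 156 with centring on medians, 163 with weights and 484 without both tg_1386_9 and wt_1386_4. X neighbours higher, 2, were 1 with quantile normalization, weights, the *Xist* covariate, averaged arrays, the second probe set or without wt_1386_4, 0 without the 3 outlying tg arrays or those 4 arrays, and 1 to 3 leaving out 1 array. BEX/TCEAL genes higher, 1, were 0 without the 3 outlying tg arrays or those 4 arrays and 1 to 2 leaving out 1 array. The p75 count of 1 higher was 2 with either replicate block or the level filter, 0 with quantile normalization, averaged arrays, the second probe set, without wt_1386_4, the 3 outlying tg arrays or those 4 arrays, and 0 to 2 leaving out 1 array, and 1 gene was lower with quantile normalization or the level filter. The blocked fit changed no other call of the Bex genes than that of *Bex4*. Within tg livers, r with *Bex1* lost its call for *Bex4* without the 2 farthest arrays (0.786) and the 3 outlying ones (0.817), for *Bex2* likewise (0.594 and 0.677), and for *Bex3* likewise (0.709 and 0.576), with quantile normalization (0.714) and without tg_1386_9 (0.709). *Cdh1* (0.900 and 0.894) and *Prom1* (0.684 and 0.565) lost theirs without the 2 farthest and without the 3 outlying arrays. In r pooled within title numbers, chosen after seeing the data, no pair passed after adjustment (*Bex4* 0.943, *Bex2* 0.468, *Bex3* 0.639), and *Sox9* turned positive (0.909). In wt livers *Bex4* gained its call without wt_1386_4 (0.866). The sign turned for *Epcam* in tg livers without the 2 farthest arrays (-0.301), and in wt livers for *Afp* (-0.260), *Cdh1* (-0.921) and *Sox9* (-0.825) without the 2 farthest profiles, and for *Cdh1* (-0.904) and *Sox9* (-0.874) without wt_1386_4. The causes of these changes were not tested. The dim wt signal of *Bex1* and of *Bex2* in both genotypes limits the size of their folds.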
